A study of Mus musculus with 2 samples.

Results

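The spots described here are the 168 of 5561 kept spots (3.02%) in which 5 genes of the superficial isocortex, its layers 2 to 4, were together highest. The isocortex is the layered sheet of the cerebral cortex. A spot is a barcoded area of a 10x Visium slide that captures polyA RNA from the tissue lying over it, and it can hold several cells or parts of cells. The study measured 2 fresh-frozen brain sections, 10 µm thick, of C57BL/6 mice labelled wildtype, both at ZT12 (zeitgeber time, counted from lights on): replicate 1 (section 1 here) and replicate 2 (section 2). C57BL/6 is a common inbred laboratory strain. There was no treatment or other genotype, and age, sex, section plane and the number of animals were not given in the sources used here. P-values therefore measure only the spread between these 2 sections, which may be technical.

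Spots with at least 500 UMIs (unique molecular identifiers, the counted RNA molecules) were kept, 3030 in section 1 and 2531 in section 2. Each was scored by the mean of ln(1 + 10000 × UMIs / spot total) over Lamp5, Cux2, Rasgrf2, Stard8 and Otof. The 150 highest spots of section 1 (4.95% of its spots) and the 18 highest of section 2 (0.711%) are the members. The last members scored 0.591 in section 1 and 0.734 in section 2, and the first spots left out scored 0.590 and 0.716 there, so the boundary cuts a gradient. Members had a median of 28386 UMIs in section 1, against 17766 in all other spots. In section 2 the median was 31264 UMIs in members, against 21550 in all other spots. The lowest member had 510 UMIs in section 1 and 3353 in section 2. The 2 sections share 1965 spot barcodes, which mark positions of the slide layout, so a spot is named by its section as well. In spots, fewer cells of a type and less RNA per cell cannot be told apart.

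Superficial isocortex holds small excitatory neurons that connect cortical areas with each other (layers 2 and 3) and, beneath them in sensory areas, layer 4 neurons that receive input from the thalamus. Both kinds load glutamate into vesicles with Slc17a7, the vesicular glutamate transporter VGLUT1. Deeper layers project out of the cortex, and layer 5 and layer 6 neurons carry factors such as Fezf2 and Foxp2. The striatum below the cortex consists mainly of inhibitory neurons with Ppp1r1b (DARPP-32), Drd1 and Penk, and these neurons do not use Slc17a7.

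The 5 genes of the score were high in the members by construction. Lamp5, a membrane protein of synaptic vesicles and endosomes (RefSeq GRCm38.p6 chr2:136052025-136069917), stood at 414 CPM (counts scaled to a fixed total of 1e6 UMIs) in section 1 members, against 73.9 CPM in all other spots there. In section 2 it was 242 CPM in members, against 58.2 CPM. Cux2, a transcription factor of upper layer neurons (chr5:121857962-122050415), stood at 111 CPM in members of section 1, against 32.1 CPM in the other spots. Section 2 gave 84.4 CPM in members and 23.3 CPM in other spots for Cux2. Otof, a calcium sensor of vesicle release, differed most between the sections, with 15 CPM in members of section 1 and 165 CPM in members of section 2.

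When the spots were chosen again by the other 4 genes, each left-out gene was still higher in the chosen spots than in the rest of its section. Lamp5 was 3.99-fold higher in section 1 (exact 95% interval 3.74 to 4.26, covering counting error only) and 3.0-fold higher in section 2 (2.36 to 3.76). Cux2 was 2.72-fold higher in section 1 and 2.64-fold higher in section 2, and Rasgrf2, an exchange factor for Ras, 2.29-fold and 2.58-fold. Otof was 2.67-fold higher in section 1 (1.89 to 3.69) and 7.63-fold higher in section 2 (5.85 to 9.80).

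Most members of section 1 and few of section 2 were high in Slc17a7, which marks excitatory neurons of all cortical layers and so does not tell superficial from deep cortex. Slc17a7 split the members into 2 groups with few spots between them, and the boundary of 500 CPM was chosen after its values were seen. In section 1, 118 of 150 members (78.7%, exact 95% interval 71.2% to 84.9%) lay above it. In section 2, 5 of 18 members (27.8%, 9.69% to 53.5%) did. Among all other spots the share above it was 36.5% in section 1 and 41.9% in section 2. The spots within a section share a library, so these intervals cover counting error only and no test was made.

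**Figure D1:**
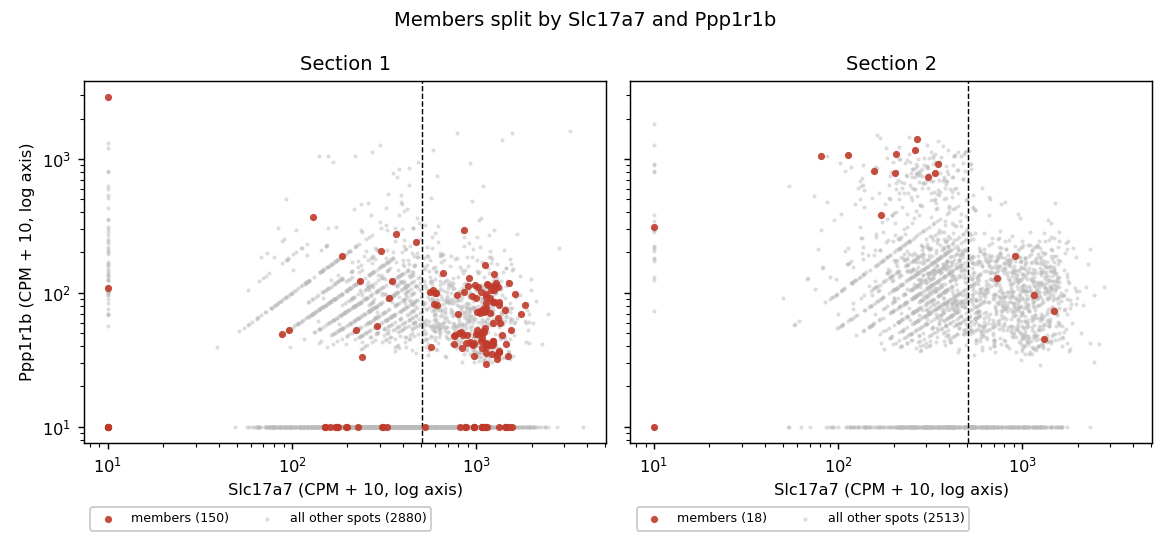
Each point is a spot, with Slc17a7 on the horizontal and Ppp1r1b on the vertical axis, both as CPM + 10 on a log scale, for section 1 (left) and section 2 (right). Red points are members, grey points all other spots, and the dashed line marks 500 CPM of Slc17a7. In section 1, 118 of 150 members lie right of the line, and in section 2 most of the 13 members left of it are high in Ppp1r1b.

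The 13 members of section 2 with little Slc17a7 carried genes of striatal neurons. Ppp1r1b, an inhibitor of protein phosphatase 1 under dopamine control, stood at 928 CPM in them, against 138 CPM in all other spots of section 2. Penk, the precursor of enkephalin, stood at 1458 CPM in them, against 312 CPM. Drd1, a dopamine receptor, was at 172 CPM there, against 20.6 CPM, and the score gene Otof at 212 CPM, against 16.2 CPM. The 8 striatum markers summed to 3084 CPM in all section 2 members, against 678 CPM in the other spots of that section, and none of the 8 was at 0. In section 1 they summed to 207 CPM in members, against 199 CPM in all other spots. The section 2 members are therefore called by the rule and by these leading genes below, and values of each section stand beside the results that turn on them.

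The 5 members of section 2 above the boundary had levels near those of their counterparts in section 1. Mef2c, a transcription factor of upper layer excitatory neurons, stood at 570 CPM in these 5 spots and at 601 CPM in the 118 of section 1. Calb1, the calcium buffer calbindin, stood at 234 CPM and 208 CPM in the same sets. Penk was at 80.4 CPM in the 5 spots and at 67.6 CPM in the 118.

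The 32 members of section 1 below the boundary were of another kind. Their median was 11574 UMIs, against 31420 UMIs in the 118 others. Lamp5 stood at 474 CPM in them, against 407 CPM in the 118 members above the boundary. Pvalb, the calcium buffer of fast-spiking inhibitory neurons, was at 847 CPM in the 32, against 203 CPM in the 118. Slc32a1, the vesicular transporter of GABA, was at 408 CPM, against 151 CPM. Mbp, a main protein of myelin, was at 6962 CPM, against 2003 CPM. Ppp1r1b, at 66.8 CPM against 50.1 CPM, was not raised there as it was in section 2. The 8 striatum markers summed to 235 CPM in the 32, against 204 CPM in the 118. Rgs9, also a striatum marker, did run higher in the 32, with 19 UMIs there and 32 UMIs in the 118. The 118 are more spots and deeper ones, so the level of Rgs9 relative to all UMIs was clearly higher in the 32. The part of these 32 members in the section 1 results below was not tested.

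Markers that the rule did not use were then compared between the members and all other spots of the same section. Counts were summed over the spots of each set, and the 4 sums were fitted with edgeR's quasi-likelihood test with section as a block. Genes with an adjusted p under 0.05 (Benjamini-Hochberg, over all genes tested) were called. Of 15914 genes tested, 975 (6.13%) were called, 500 of them higher in members (3.14%) and 475 lower (2.98%). At least 2-fold higher were 150 called genes (0.943%), and at least 2-fold lower 185 (1.16%). The fit has 1 residual degree of freedom, and the spread was shared over genes completely, so a gene can be called although the 2 sections differ. Of the called genes, 917 had the same sign in both sections. Without the section as a block, edgeR called 0 genes (1497 at an unadjusted p under 0.05), and with the block DESeq2 called 247. The other genes were not part of the score, but they come from the same spots, and a gene that follows the 5 in space had to differ.

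Layer 2/3 markers were higher in the members, and layer 4 markers mostly were not. Of 8 layer 2/3 markers, 6 rose and none fell, with a median log2 fold change of 0.74, against -0.03 over all genes tested. Mef2c averaged 549 CPM in section 1 members and 334 CPM in section 2 members, against 197 CPM and 166 CPM in all other spots, a log2 fold change of 1.24 ± 0.14 (SE; edgeR's quasi-likelihood test, adjusted p = 4.45e-17). Both sections moved the same way, by 1.49 in section 1 and 0.98 in section 2. Inhba, a subunit of activin, was at 8.68 CPM and 13.1 CPM in the members of sections 1 and 2, against 3.25 CPM and 3.13 CPM (log2 fold change 1.58 ± 0.39). The section 2 level of Inhba in members rests on 7 UMIs. Wfs1, a protein of the endoplasmic reticulum, rose by 1.41 ± 0.15, and its rise was larger in section 2 (2.02) than in section 1 (0.89). Wfs1 is also abundant in striatal neurons, and in section 2 it stood at 520 CPM in the 13 spots low in Slc17a7, against 51.2 CPM in the 5 others.

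Calb1 and Nptx2, a secreted pentraxin of excitatory synapses, were called but rested on section 1. Calb1 changed by 0.81 in section 1 and by -0.08 in section 2 (log2), and Nptx2 by 1.04 and -0.20. Dgkb, a diacylglycerol kinase, rose by 0.71 ± 0.15 and in both sections. In section 2, 67 of its 83 UMIs in members lay in the spots low in Slc17a7. Those spots are 72.2% of the section 2 members, so this split alone does not set them apart for Dgkb. Cux1, the relative of Cux2, changed by 0.28 ± 0.16 and Dkkl1 by 0.62 ± 0.28, and neither passed the test (adjusted p = 0.426 and 0.235, edgeR's quasi-likelihood test).

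Of 7 layer 4 markers, 1 rose and none fell. It was Rspo1, a secreted activator of Wnt signalling, with 23.6 CPM in section 1 members against 7.01 CPM in all other spots, and 5.62 CPM in section 2 members against 5.22 CPM. Rorb, the nuclear receptor that marks layer 4, stood at 24.4 CPM in section 1 members and 26.2 CPM in section 2 members, against 27.5 CPM and 20.8 CPM in all other spots. Its log2 fold change was -0.05 ± 0.22 and did not pass the test. Scnn1a, a sodium channel subunit of layer 4 neurons, was at 1.93 CPM and 1.87 CPM in members of the 2 sections, against 3.28 CPM and 3.42 CPM. The summed level of the 7 genes was 87.8 CPM in section 1 members, against 77.8 CPM in the other spots, and 67.5 CPM in section 2 members, against 73.1 CPM. The members therefore differ from the rest of the sections in layer 2/3 markers, though in section 2 only 5 of the 8 were higher. Summed over the 8, the section 2 members low in Slc17a7 stood at 1097 CPM, against 557 CPM in all other spots there. These spots carried striatal genes, so the rise in section 2 does not by itself mark layer 2/3 neurons. The label's layer 4 was not borne out by the layer 4 genes.

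Some deep layer markers were called, most of them lower, where 6.13% of all genes tested were called. Of 9 layer 5 markers, 3 fell and none rose. Of the 9, 6 were lower in both sections and 3 were higher in section 2. The summed level of the 9 ran opposite ways in the sections. It was 790 CPM in section 1 members against 1725 CPM in all other spots, and 2807 CPM in section 2 members against 1798 CPM. Within section 2 the sum was 3478 CPM in the members low in Slc17a7 and 862 CPM in those high in it. Much of the sum was 1 gene, Pcp4, which stood at 552 CPM in section 1 members. Its log2 change was -1.31 in section 1 and 0.80 in section 2. Of its 1334 UMIs in section 2 members, 1250 lay in the 13 of 18 spots low in Slc17a7. Etv1, a transcription factor of layer 5, was at 64.2 CPM and 20.6 CPM in members of sections 1 and 2, against 106 CPM and 79.1 CPM (log2 fold change -0.99 ± 0.17). Of 8 layer 6 markers, Hs3st4 fell (-0.92 ± 0.19, with -1.01 in section 1 and -0.66 in section 2) and Tbr1 rose (0.80 ± 0.17, with 0.96 and 0.51). Foxp2 stood at 7.24 CPM in section 1 members against 20.5 CPM, and at 65.6 CPM in section 2 members against 25.4 CPM, so the sections ran opposite ways. Most of the section 2 level lay in the 13 spots low in Slc17a7 (83.2 CPM), and Foxp2 is a gene of striatal neurons as well.

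**Figure D2:**
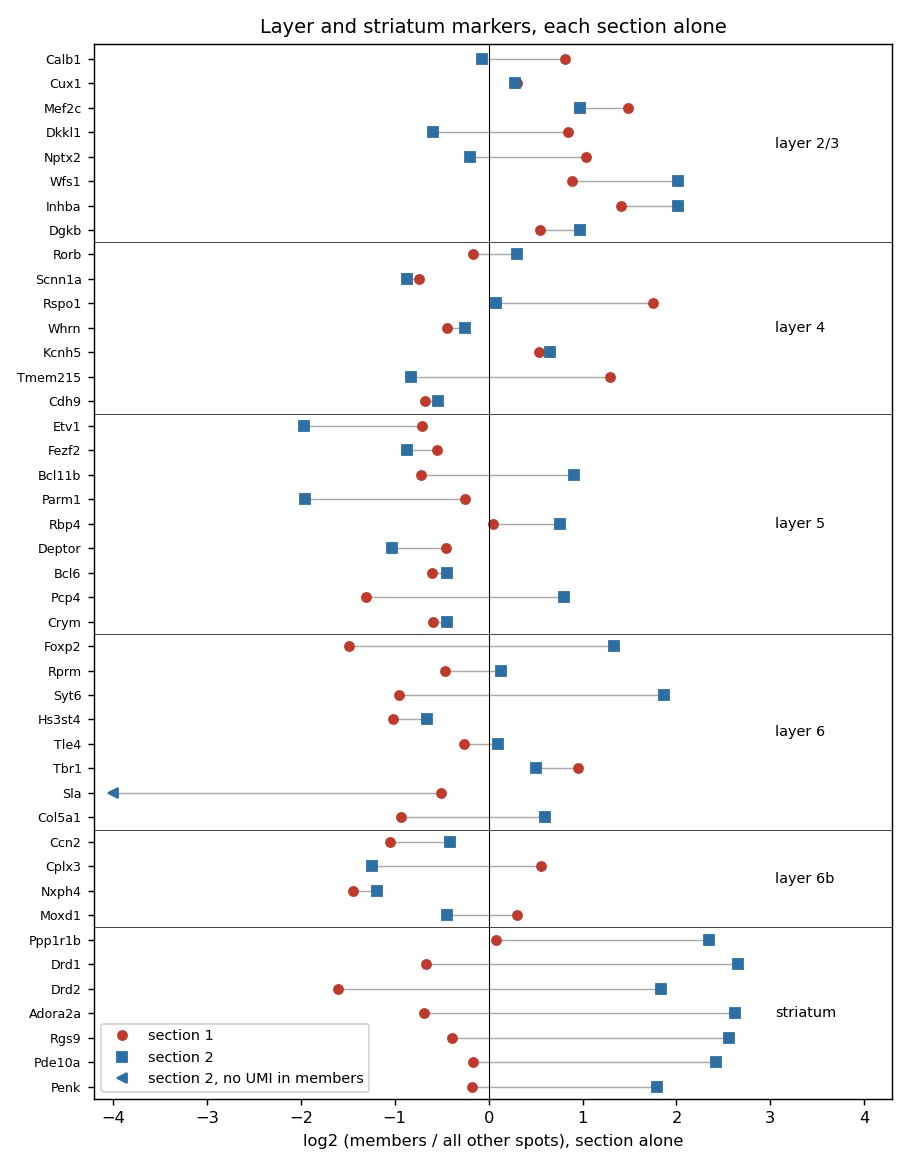
Log2 ratio of members to all other spots for markers of cortical layers and of the striatum, in section 1 (red circles) and section 2 (blue squares), each from that section's sums alone. Mef2c, Wfs1, Inhba and Dgkb lie right of 0 in both sections, while the striatum markers drawn lie left of 0 in section 1, except Ppp1r1b at 0.08, and right of it in section 2. The triangle at the left edge is Sla, with no UMI in section 2 members, which allows up to 5.62 CPM.

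Some transcription factors of cortical projection neurons were higher as well. Of 20 listed, 7 rose and none fell. Lmo4, a LIM domain factor of upper layer neurons, was higher in both sections, with 329 CPM and 251 CPM in members, against 128 CPM and 107 CPM (log2 fold change 1.28 ± 0.14).

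The striatum list, in turn, rested mostly on section 2. Of its 8 markers, 7 were called higher, yet the median over the list was -0.28 in section 1 and 2.40 in section 2 (log2). Ppp1r1b changed by 0.08 in section 1 and by 2.34 in section 2. Drd1 changed by -0.67 and 2.66, Rgs9, a regulator of G protein signalling in the striatum, by -0.39 and 2.56, and Adora2a, an adenosine receptor, by -0.68 and 2.63.

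**Figure D3:**
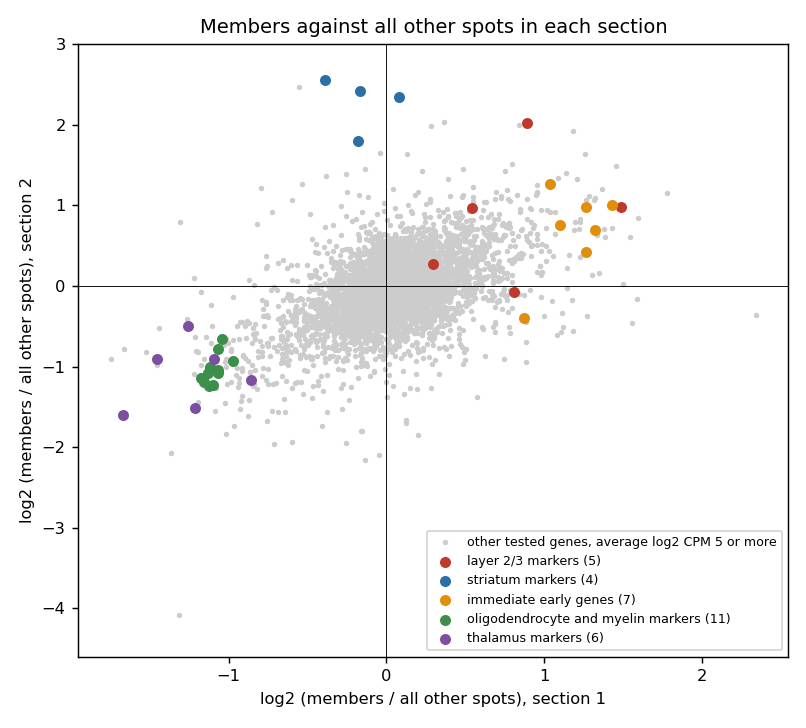
Each point is a tested gene averaging 5 or more on the log2 CPM scale and shows its log2 ratio of members to all other spots in section 1 (horizontal) and section 2 (vertical), from each section's sums alone. Myelin markers (green) and thalamus markers (purple) lie below 0 in both sections and layer 2/3 markers (red) mostly above it, while the striatum markers drawn (blue) lie between -0.39 and 0.08 in section 1 and at 1.80 or more in section 2.

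Other genes named by the size of their change include channels and signalling proteins. The rule took only called genes whose sections shared a sign, so that their direction in both sections was fixed by it. Kcnh3, a potassium channel of forebrain neurons, was at 96.2 CPM and 78.7 CPM in members of sections 1 and 2, against 28.1 CPM and 34.6 CPM (log2 fold change 1.55 ± 0.17). Kcnj4, an inward rectifier potassium channel, rose by 1.41 ± 0.15, with 1.26 in section 1 and 1.63 in section 2. Akap5, a scaffold for kinases at the postsynaptic membrane, rose by 1.46 ± 0.17, with 1.45 and 1.48. Gucy1a1, a subunit of the nitric oxide receptor, rose by 1.49 ± 0.15, with 1.18 and 1.92, and Ngef, a guanine nucleotide exchange factor, by 1.25 ± 0.14, with 1.14 and 1.40. Igfbp6, a binding protein of insulin-like growth factors, was higher in section 1 (138 CPM against 45.9 CPM) than in section 2 (63.7 CPM against 34.9 CPM). Pdyn, the precursor of dynorphin, rose by 1.37 ± 0.18, with 0.84 in section 1 and 2.0 in section 2. In section 2, 74 of its 80 UMIs in members lay in the spots low in Slc17a7, which are 72.2% of the members there.

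Of 19 postsynaptic density genes, 10 rose and 1 fell. Nrgn, a calmodulin-binding protein of dendrites, was at 2616 CPM and 2282 CPM in members, against 1122 CPM and 1738 CPM in the other spots of sections 1 and 2. Homer1, a scaffold of glutamate receptors, rose by 1.12 ± 0.16, with 1.04 in section 1 and 1.27 in section 2, and Homer3, which is abundant in cerebellar Purkinje cells, fell by 1.14 on the log2 scale. Of 20 voltage-gated potassium channel genes tested, 8 rose and 1 fell, among them Kcnv1 (1.43 ± 0.22), Kcnh1 (1.40 ± 0.23) and Kcnq5 (1.13 ± 0.19), all higher in both sections. Few glutamate receptor subunits were called: of 9 AMPA and kainate receptor genes 1 rose, Gria3 (0.50 ± 0.15, with 0.56 in section 1 and 0.44 in section 2), and of 6 NMDA receptor genes 1 rose, Grin2a (0.64 ± 0.15, with 0.48 and 0.87). The muscarinic receptor Chrm1 rose by 0.79 ± 0.15, with 0.99 and 0.52, and the adrenergic receptor Adrb1 by 0.95 ± 0.19, with 1.16 and 0.38.

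Immediate early genes, which neurons transcribe within minutes of strong activity, were higher in members than in all other spots. Of 17 listed, 15 rose and none fell, with a median log2 fold change of 1.14 in section 1 and 0.66 in section 2. Egr3, a zinc finger factor, was at 174 CPM and 107 CPM in members of sections 1 and 2, against 64.9 CPM and 52.1 CPM (log2 fold change 1.26 ± 0.16). Fos was at 68.3 CPM and 33.7 CPM in members, against 27.7 CPM and 12.5 CPM. Btg2, an inhibitor of cell division that activity induces, was at 62.7 CPM and 18.7 CPM in members, against 21.7 CPM and 12 CPM. Egr2 was at 22.4 CPM in section 1 members against 4.55 CPM, and in section 2 at 1.87 CPM against 1.41 CPM, so its rise of 2.13 ± 0.36 rests on section 1. In section 1 the 32 members low in Slc17a7 had 29.9 CPM of Egr3 and 20.7 CPM of Arc, a synaptic protein made near active synapses, against 191 CPM and 152 CPM in the 118 members high in it.

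The promoters of Btg2 and Egr2 are shown as an example each of a window in this list that holds a motif through which activity is known to act. The motifs searched were TGACGTCA, the full cyclic AMP response element, and the CArG box bound by serum response factor, and both read the same on either strand as patterns. RefSeq promoters (GRCm38.p6) were found for 12 of the 17 genes. TGACGTCA occurred in 2 of the 12, Btg2 and Dusp1, and the CArG box in Egr2 alone. Over all 32851 promoters of the same length, 300 bases, TGACGTCA occurred in 1.79% and the CArG box in 1.63%. These shares count single promoters, while the 12 are genes, some with several promoters, so the counts are not like for like. The 250 bases before the start are printed 5′ to 3′ on the gene's strand, for Btg2 at chr1:134079156-134079405 (minus strand) and for Egr2 at chr10:67537680-67537929 (plus strand), with the motif in capitals.
Btg2: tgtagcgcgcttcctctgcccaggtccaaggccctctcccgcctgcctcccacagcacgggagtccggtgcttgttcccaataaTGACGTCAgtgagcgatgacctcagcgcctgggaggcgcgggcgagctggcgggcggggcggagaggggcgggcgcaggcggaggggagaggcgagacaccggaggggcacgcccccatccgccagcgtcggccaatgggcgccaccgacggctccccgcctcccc
Egr2: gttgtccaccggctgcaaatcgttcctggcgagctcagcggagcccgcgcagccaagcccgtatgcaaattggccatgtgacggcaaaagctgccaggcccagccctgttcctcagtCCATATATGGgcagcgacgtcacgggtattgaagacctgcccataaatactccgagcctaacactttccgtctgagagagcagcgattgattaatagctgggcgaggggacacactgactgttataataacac

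Inhibitory neuron markers gave no common direction. Of 8 markers shared by GABAergic neurons, 1 rose and none fell. Among 12 markers of interneuron classes, 5 rose and 2 fell. Vip, a peptide of interneurons that are frequent in the upper layers, was at 102 CPM in section 1 members against 20.1 CPM in all other spots, a 5.07-fold difference (exact 95% interval 4.52 to 5.67). In section 2 Vip was at 15 CPM in members against 18.9 CPM. Section 1's Vip lay in the members high in Slc17a7, with 113 CPM, against 2.30 CPM in those low in it. Pvalb fell by 0.81 on the log2 scale, with 270 CPM and 103 CPM in members against 403 CPM and 230 CPM.

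Markers of myelin, thalamus, dentate gyrus and the glial boundary under the pia were lower in members. All 12 myelin markers fell. Mbp was at 2522 CPM and 2139 CPM in members of sections 1 and 2, against 5722 CPM and 4626 CPM in all other spots (log2 fold change -1.17 ± 0.11, adjusted p = 2.52e-24, edgeR's quasi-likelihood test). The summed level of the 12 was 5671 CPM in section 1 members against 12740 CPM, and 5790 CPM in section 2 members against 12884 CPM. All 8 thalamus markers fell, led by Lef1 (-1.79 ± 0.37) and Prkcd (-1.66 ± 0.17), and so did all 6 dentate gyrus markers. Of the dentate gyrus markers, Tdo2 had no UMI in members of either section and Dsp none in section 2, where 3 counts equal 5.62 CPM. All other spots of section 2 together held 106 UMIs of Tdo2, so that section cannot show its fall. Of 12 astrocyte markers, 5 fell and none rose, with Agt at -1.06 ± 0.16, and all 5 markers of the glial boundary under the pia fell, led by Myoc (-1.24 ± 0.20). Of 10 microglial markers 1 fell, of 6 markers of oligodendrocyte precursors 2 and of 8 CA field markers 1, and none of these rose.

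Red blood cell genes and most markers of leptomeningeal fibroblasts were lower as well. Of 10 markers of leptomeningeal fibroblasts, which lie on the brain's surface above layer 1, 7 fell and none rose, and their sum was 108 CPM in section 1 members against 232 CPM, and 71.2 CPM in section 2 members against 124 CPM. All 5 red blood cell genes fell. Hba-a1, a globin chain, was at 77.9 CPM and 174 CPM in members, against 263 CPM and 320 CPM. The globin genes Hba-a1 and Hba-a2 are near-identical copies, and reads could be divided between them in counting. Vessel markers were called less completely, 4 of 8 of mural cells and 1 of 10 of endothelium, Cldn5 (-0.72 ± 0.20), and all of these fell. Ribosomal protein genes and genes of the mitochondrial genome gave 0 calls of 27 and of 13 with edgeR (5 and 0 at an unadjusted p under 0.05), and the mitochondrial share of UMIs was 14.0% in section 1 members against 14.9%, and 14.7% in section 2 members against 14.3%.

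To set the members against other cortex, deep cortex spots were chosen by the same kind of score with Rprm, Tbr1, Syt6, Hs3st4 and Tle4, 150 in section 1 and 18 in section 2. Of these, 139 in section 1 and all 18 in section 2 were above 500 CPM of Slc17a7. Counts were summed again, 6 sums with those of CA1 spots, and fitted together with section as a block. Of 9584 genes tested, 256 (2.67%) were called, 121 higher in members (1.26%) and 135 lower (1.41%), and 51 (0.532%) and 50 (0.522%) by at least 2-fold. The same sign in both sections was found for 249 of the called genes. With the section 2 members left out, a setting added after seeing the data, 721 genes were called, 79 higher and 71 lower by at least 2-fold. With the section 1 members left out instead, 455 were called, 142 and 111 of them by at least 2-fold.

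Several genes of deep layers were lower in members than in deep cortex spots, which a score over layer 6 genes had chosen. Of the lists, 2 of 8 layer 5 markers tested fell and 1 of 2 layer 6 markers outside the score, and none rose. Fezf2, the factor that specifies neurons projecting below the cortex, was at 13.0 CPM and 7.50 CPM in members of sections 1 and 2, against 54.7 CPM and 36.6 CPM in deep cortex spots (log2 fold change -2.09 ± 0.24, adjusted p = 1.27e-05, edgeR's quasi-likelihood test). Trbc2, annotated as a constant region of the T cell receptor, was at 14.2 CPM and 7.50 CPM in members, against 85.2 CPM and 83.4 CPM (-2.70 ± 0.22). Nxph3, a secreted ligand of neurexins, was at 15 CPM and 7.50 CPM, against 87.7 CPM and 99.6 CPM (-2.69 ± 0.25). Myl4, a myosin light chain, changed by -2.66 ± 0.22, Grik3, a kainate receptor subunit, by -1.80 ± 0.20, and Crym, a thyroid hormone binding protein, by -1.36 ± 0.18. The rule took genes whose sections shared a sign, so the fall in both sections was fixed by it. Both layer 6b markers tested fell, with log2 fold changes of -2.18 for Ccn2 and -1.47 for Cplx3.

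**Figure D4:**
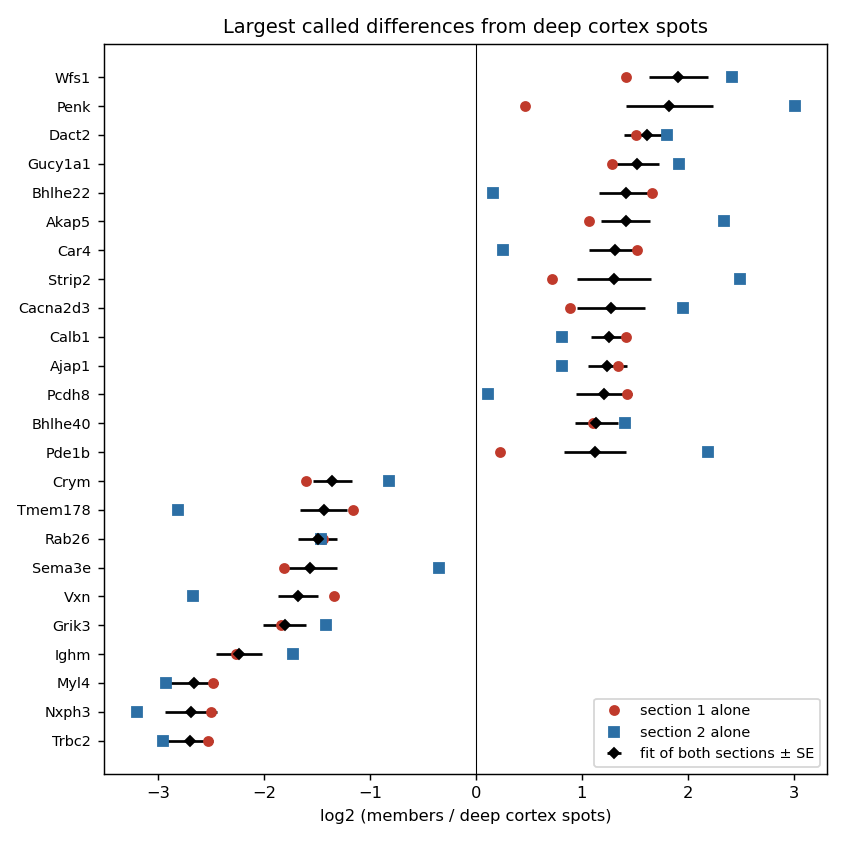
The largest called rises and falls between members and deep cortex spots, as log2 ratios from the fit of both sections (black diamonds with SE) and from each section's sums alone (red circles, section 1, and blue squares, section 2). Trbc2, Nxph3 and Myl4 lie at -2.48 or below in both sections, while Penk, Strip2 and Pde1b lie at 0.72 or below in section 1 and at 2.20 or more in section 2.

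Many of the rises over deep cortex were uneven between the sections. Calb1 was at 195 CPM and 122 CPM in members, against 72.6 CPM and 69.1 CPM in deep cortex spots (log2 fold change 1.26 ± 0.17). Dact2, a modulator of Wnt and TGF-beta signalling, rose by 1.62 ± 0.22, with 1.52 in section 1 and 1.80 in section 2. Gucy1a1 rose by 1.52 ± 0.20, with 1.28 and 1.92, and Ajap1, an adherens junction protein, by 1.24 ± 0.18, with 1.34 and 0.81. Bhlhe22, a factor of upper layer and hippocampal neurons, and Car4, a carbonic anhydrase, were carried by section 1 (1.67 and 1.52 there, 0.17 and 0.26 in section 2). Penk and Pdyn were carried by section 2 (3.01 and 3.30 there, 0.46 and 0.87 in section 1). Of 7 layer 2/3 markers tested 4 rose, Mef2c among them (0.51 ± 0.12), and of 3 layer 4 markers tested 0 were called by edgeR (1 at an unadjusted p under 0.05). Slc17a7 fell by 0.76 on the log2 scale, with 996 CPM and 448 CPM in members against 1220 CPM and 1259 CPM in deep cortex spots.

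Immediate early genes passed the test against all other spots but not against deep cortex, and the difference between these comparisons was not tested. Of 16 tested, 0 were called by edgeR's quasi-likelihood test and 4 had an unadjusted p under 0.05, with a median log2 fold change of 0.10 against 0.00 over all genes tested. The medians of the sections alone had opposite signs, 0.06 in section 1 and -0.13 in section 2. Of the 16, 10 were higher in members in section 1 and 5 in section 2. Arc was at 138 CPM and 52.5 CPM in members of sections 1 and 2, against 181 CPM and 112 CPM in deep cortex spots. Arc was thus lower in the members of both sections, without passing the test. Myelin markers were lower than in deep cortex too, 10 of 12, with Mbp at 2522 CPM and 2139 CPM in members against 4092 CPM and 4358 CPM.

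CA1 spots were compared because upper layer neurons and pyramidal cells of the hippocampal CA1 field share many genes. They were the 30 spots of section 1 and the 18 of section 2 highest in Spink8, Fibcd1, Mpped1, Wfs1 and Man1a. In the same fit, 627 of 9584 genes (6.54%) were called, 277 higher in members (2.89%) and 350 lower (3.65%), and 134 (1.40%) and 160 (1.67%) by at least 2-fold. The same member sums enter all 3 comparisons, which are therefore not independent.

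Against CA1, the members had more Mef2c and less of several ionotropic glutamate receptor subunits. Mef2c was at 549 CPM and 334 CPM in members of sections 1 and 2, against 156 CPM and 127 CPM in CA1 spots (log2 fold change 1.67 ± 0.14, adjusted p = 4.50e-08, edgeR's quasi-likelihood test). Atp2b4, a calcium pump, rose by 1.92 ± 0.23, with 2.45 in section 1 and 1.06 in section 2, and Igfbp6 by 1.92 ± 0.28, with 1.88 and 1.64. Cckbr, the brain receptor of cholecystokinin, was carried by section 1 (2.16, against 0.26 in section 2). Of 6 NMDA receptor genes 3 fell, with Grin2a at 158 CPM and 201 CPM in members against 434 CPM and 378 CPM. The log2 fold change was -1.60 for Gria1, an AMPA receptor subunit, and -2.04 for Gabra5, a GABA-A receptor subunit of the hippocampus. Of 17 postsynaptic density genes 4 fell and none rose, and of 19 synaptic vesicle genes 6 rose and none fell. Of 6 metabotropic glutamate receptor genes 2 rose, Grm2 (1.35 ± 0.38) among them. Pou3f1 and Neurod6, transcription factors, had log2 fold changes of -3.33 and -2.54.

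Within section 1 the members were graded along their score. In the 50 highest-scoring spots 94.0% were above 500 CPM of Slc17a7, in the next 50 it was 78.0% and in the last 50 of the members 64.0%. Beyond the members, the share was 54.7% at ranks 151 to 300 and 51.3% at ranks 301 to 600. Mef2c stood at 635 CPM, 561 CPM and 428 CPM in the 3 bands of members and at 378 CPM and 274 CPM in the bands beyond. Calb1 stood at 229 CPM, 194 CPM and 154 CPM in the bands of members and at 106 CPM and 98.0 CPM beyond. Fezf2 was at 10.6 CPM, 9.20 CPM and 20.5 CPM in the bands of members and at 36.1 CPM and 28.2 CPM beyond. Mbp stood at 1830 CPM in the first band and 4301 CPM in the last, and Pvalb at 167 CPM in the first and 407 CPM in the third. Rorb had no such gradient, with 17.8 CPM in the first band and between 26.6 CPM and 28.8 CPM in the other 4. Section 2 ran the other way in several of these genes. Above 500 CPM of Slc17a7 were 27.8% of its 18 members, 27.8% of the spots at ranks 19 to 36 and 44.4% of those at ranks 37 to 72. Slc17a7 stood at 448 CPM in its members and at 597 CPM and 782 CPM in the bands beyond, and Calb1 at 122 CPM, against 135 CPM and 184 CPM. Mef2c was at 334 CPM in the section 2 members, against 248 CPM and 279 CPM beyond.

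**Figure D5:**
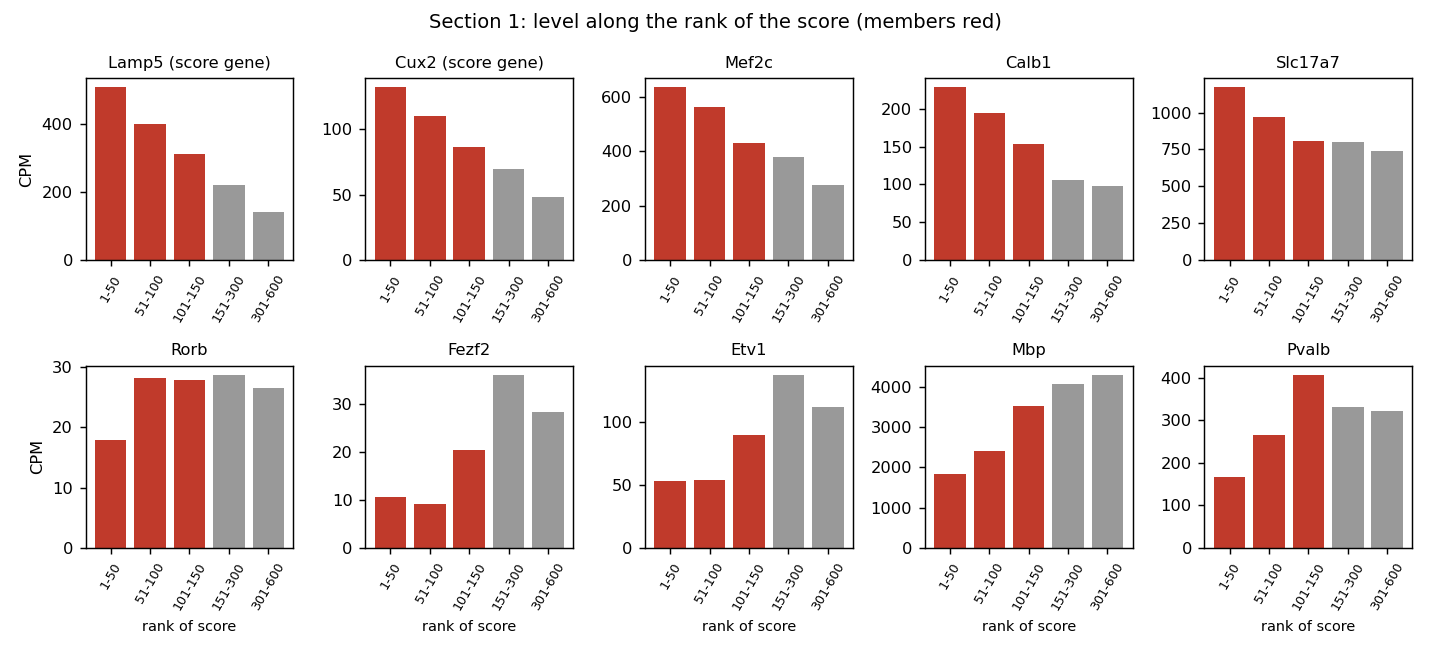
Level in CPM, from summed UMIs, of 10 genes in 5 bands of score rank in section 1, with members in red and spots beyond them in grey. Lamp5 and Cux2 are part of the score and fall by construction. Mef2c and Calb1 fall along the bands as well, Fezf2, Etv1 and Mbp are higher in the last bands, and Rorb is lowest in the first.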

How the data were processed

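The authors deposited whole-number UMI counts per gene and spot for 2 sections, 32285 genes each. Per the file headers the matrices were written by Space Ranger 1.2.2 (section 1) and 2.0.1 (section 2). The submitters' processing notes name Space Ranger 2.0.1 and the build mm10. No spot positions were used here. Members, comparison spots and gene lists were chosen with earlier results of these data known.

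Spots with at least 500 UMIs were kept, counts were summed per section and spot set, and the sums were tested with edgeR 4.0.16 (R 4.3.3; filterByExpr, TMM, glmQLFit, glmQLFTest, section as a block, Benjamini-Hochberg adjustment). The members' sums held 4145610 and 533364 UMIs. The 5 genes of each score were left out of counts of calls. Intervals are exact (scipy 1.17.1) and cover counting error only. CPM are a sum's counts scaled to a total of 1e6. The section block is used because the spot sets of a pair lie on the same section. Values of a section alone use a prior count of 2. On data simulated with 200 genes changed 2-fold, the test recovered 60.5% against all other spots, 80.0% against deep cortex and 60.5% against CA1. False calls made up 4%, 2.4% and 6.2% of the calls. The changed genes were not low in counts, changed alike in both sections, and all genes shared a single spread. Members that differ between the sections, as here, were not simulated.

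Genes were named by rule: per comparison, 15 rises and 10 falls by size, taken from called genes whose sections shared a sign and whose mean log2 CPM was 5 or more, all layer 2/3 and layer 4 markers, and up to 4 called members of each other list. Others named (Egr3, Arc, Foxp2, Fezf2, Slc17a7 and the marker levels by class) were added after their values were seen. A few genes that the rule names are not reported here. Alternatives were DESeq2 1.42.0, other filters, depths, spot numbers and scores, and each section left out. Promoters and positions are RefSeq's (GRCm38.p6).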

Additional observations from a re-analysis of the deposited data

How the results depend on the processing

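Counts of genes at least 2-fold higher and lower in members are given in the order all other spots, deep cortex, CA1. DESeq2 gave 61 and 47, 5 and 17, and 41 and 86. Requiring 10 counts in every sum gave 51 and 51, 21 and 15, and 72 and 90. Without the replicate block the counts were 0 and 0, 1 and 16, and 44 and 102. Thinning spots to 5000 UMIs gave 73 and 64, 2 and 5, and 23 and 53, with fewer genes tested. With 300 and 36 spots, 96 genes were lower than in all other spots and 30 higher than in deep cortex, and with 200 and 24 spots 33 were higher than in deep cortex. With no filter 80 were higher than in deep cortex, and without Lamp5 in the score 117 were lower than in all other spots. The cause of these shifts was not tested. Leaving out a section, or its members, gave 467 to 1031 higher and 1103 to 3255 lower against all other spots (1 section, no test), 63 to 418 and 64 to 373 against deep cortex, and 184 to 413 and 171 to 392 against CA1.

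Of 4959 tested values for 302 named genes and comparisons, 4032 kept direction and side of the threshold, 884 lost the call, 21 gained it, 9 called values reversed and 13 uncalled values changed sign. Of 604 values from 1 section alone, which have no test, 580 kept the direction. For genes named by size the shared direction was fixed by the rule. The fit also draws on the same sections, so this count is no independent check. Against all other spots, log2 values in section 1 and section 2 alone were -0.68 and 2.63 for Adora2a, -0.67 and 2.66 for Drd1, -0.39 and 2.56 for Rgs9, -0.55 and 2.47 for Tac1, 0.81 and -0.076 for Calb1, and 1.04 and -0.20 for Nptx2. They were -1.86 and 0.17 for Fign, 2.35 and -0.36 for Vip, -1.81 and 0.046 for Ogn, -1.22 and 0.10 for Htr2c, 1.06 and -0.24 for Chrm3, and 0.84 and -0.11 for Bhlhe40. Against deep cortex Tac2 was 2.28 and -0.069, and Vip -0.077 in section 2. Against CA1 Tac1 was -0.48 and 3.61 and Vip 2.56 and -1.15, and Drd1 was -0.12 in section 1. Trh became 0.46 with 5000 UMIs per spot, 0.35 with 200 and 24 or 300 and 36 spots, and 0.44 without Stard8 in the score. Without the section 1 members Vip was -1.15 and without those of section 2 1.56 against deep cortex. Against CA1, Vip was -0.70 and Drd1 3.09 without the section 1 members, and Drd1 -0.34 and Tac1 -0.17 without those of section 2. Hlf was -0.14 against CA1 after thinning.

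Depth limits the values of section 2, where 3 counts equal 5.62 CPM in the members and 6.10 CPM in deep cortex spots.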

Other observations

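Guidance and clock genes gave further differences between members and all other spots. Of 16 semaphorin and plexin genes 3 rose and 4 fell. Sema3a, a secreted guidance cue, was at 25.1 CPM and 50.6 CPM in members of sections 1 and 2, against 8.20 CPM and 11 CPM (log2 fold change 1.82 ± 0.25). Plxnd1, a semaphorin receptor, rose by 0.99 ± 0.20, with 1.28 in section 1 and 0.26 in section 2. Of 19 circadian clock genes 2 rose and 1 fell. Per1, a repressor of the clock, was at 100.3 CPM and 111 CPM in members, against 72.6 CPM and 69.5 CPM, and Rora, a nuclear receptor, fell by 0.57 on the log2 scale.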
